A study of Mus musculus with 12 samples.

Results

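The 8 genes described here encode enzymes, receptors and an adaptor of the renin-angiotensin system, and their expression was measured in cells sorted as endothelial cells from mouse bone marrow. They were taken from a list of symbols matched to Ensembl gene identifiers, and all 8 were found among the 55421 genes of the count table and among the 15999 genes with enough reads to be tested. RNA was sequenced in 12 libraries, 3 in each of 4 groups of mice aged 20 weeks. Control mice were naive C57BL/6J animals with no surgery or pump named in the labels. Hypertension was induced in C57BL/6J mice by angiotensin II, the effector peptide of the system, infused from an implanted minipump for 8 weeks per the methods. Atherosclerosis was studied in Apoe(tm1Unc) mice, which lack apolipoprotein E and, per the methods, ate a western diet for 10 weeks. Mice with myocardial infarction (MI) were C57BL/6J animals sampled on day 2 per the labels and on day 4 in the study's text. The same 3 control libraries served every comparison. The study's figure legend gives 3 mice per group, while nothing in the labels describes how the replicates of a group were kept apart. The p-values measure the spread between these libraries. The question asked of these genes was whether angiotensin II infusion changed them. As no pump or surgery is named for control, infusion, pump surgery and raised blood pressure cannot be told apart in hypertension.

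In the renin-angiotensin system, renin cuts angiotensinogen to angiotensin I, and angiotensin-converting enzyme, encoded by Ace, trims this to angiotensin II. Angiotensin II raises blood pressure mainly through the type 1 receptor, of which mice carry a pair of copies, Agtr1a and Agtr1b. Other peptidases shorten or divert the peptides, so that the cell surface both makes and removes the hormone.

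Libraries held 17007088 to 25136936 counts, and Apoe was measured at 781 ± 98.4 CPM (SD, n = 3; CPM is a library's count for a gene scaled to a common library size) in control and at 10.6 ± 3.81 CPM in atherosclerosis, a check of the genotype label. The cells were gated as CD45- and CD31hi, yet the summed level of 24 endothelial markers was 189 to 330 CPM over the 12 libraries, beside 33792 to 97141 CPM for 13 neutrophil markers and 11143 to 46704 CPM for 15 erythroid markers. No marker of these 3 lists was at 0 in every library. The library labelled atherosclerosis replicate 2 stood furthest from the rest, with a median r of 0.960 to the others. Cdh5, the endothelial cadherin, was at 3.33 ± 0.77 CPM in control, and Ptprc, which encodes CD45, was at 634 ± 83.8 CPM. The values below are of bulk RNA, in which fewer cells of a type and less RNA per cell cannot be told apart. The cell type that contributed the transcripts of any of the 8 genes was not tested.

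The 8 genes spanned a wide range of levels. On the scale of CPM per kb of exon, which allows genes to be compared with each other, Atp6ap2 had the highest median level over the 12 libraries at 66.7 (lowest 51.4, highest 94.4), above 94.7% of the tested genes. Agtrap followed at a median level of 24.7 CPM per kb (19.1 to 29.0) and Rnpep at 19.5 (13.6 to 22.1), and these ranges overlapped. Lnpep had a median level of 6.29 CPM per kb (4.85 to 8.43) and Agtr1a one of 4.31 (2.83 to 6.50), again with overlapping ranges. Both stood near the middle of the tested genes, above 62.9% and 55.3% of them. Ace was low, with a median level of 0.487 CPM per kb (0.219 to 1.64), above 18.2% of the tested genes. Anpep at 0.132 (0.0430 to 0.198) and Mme at 0.0894 CPM per kb (0.0390 to 0.169) were lower still and overlapped each other. Mme rested on 9 to 50 reads per library and Anpep on 4 to 20, so only large changes of these 2 genes could be detected.

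**Figure D1:**
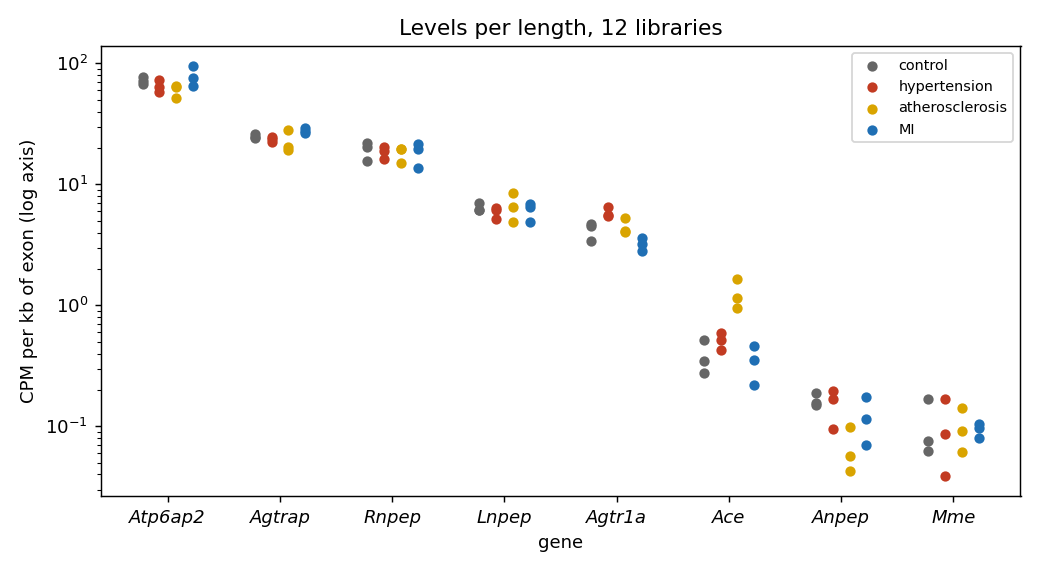
Level of each of the 8 genes in CPM per kb of exon (vertical log axis) in the 12 libraries, coloured by group, 3 points per group. Atp6ap2 lay at 51.4 to 94.4 CPM per kb and Mme at 0.0390 to 0.169, while the groups differed little beside the distance between genes.

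Against control, no member of the list passed the test (adjusted p under 0.05) in hypertension. With p-values of edgeR's quasi-likelihood test adjusted over all tested genes, 0 of 8 members passed, where the background was 0% of all tested genes. By the likelihood-ratio test of edgeR and by DESeq2 the count was also 0. At an unadjusted p under 0.05, 1 of 8 members was past the threshold, Agtr1a, beside 3.71% of all tested genes. Agtr1a was also the 1 member whose hypertension libraries did not overlap the control libraries, as was the case for 16.8% of all tested genes. Fitted changes were above 0 for 2 members and below 0 for 6, with a median log2 fold change of -0.08 beside -0.01 over all tested genes.

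Agtr1a (ENSMUSG00000049115, chr13:30336441-30382867, plus strand, GRCm38) encodes the main angiotensin II type 1 receptor, the G protein-coupled receptor through which the peptide constricts vessels. Its level was 12.5, 9.48 and 13.1 CPM in the 3 control libraries and 18.1, 15.5 and 15.3 CPM in hypertension. The level in atherosclerosis was 11.3, 14.6 and 11.5 CPM and in MI 8.94, 10.1 and 7.88 CPM. All hypertension libraries were above all others, the control and atherosclerosis libraries were mixed, and the MI libraries took the low end with only the control library at 9.48 CPM among them. These values came from 136 to 399 reads per library. The fitted log2 fold change in hypertension was 0.48 (SE 0.19, 95% interval 0.08 to 0.88), a fold of 1.39, with an adjusted p of 0.951 in edgeR's quasi-likelihood test, so that the difference did not pass. It stood at rank 207 of 15999 by p.

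In the same fit the log2 fold change of Agtr1a was 0.09 in atherosclerosis (95% interval -0.31 to 0.49) and -0.38 in MI (-0.79 to 0.02). Leaving out 1 library at a time gave 0.35 to 0.58 for hypertension. Several marker sums moved in the same libraries. The macrophage sum (14 markers) was 1547 to 2032 CPM in hypertension against 1245 to 1526 CPM in control, the basophil and mast cell sum (11 markers) was 3705 to 4606 against 2194 to 3378 CPM, and the neutrophil sum was 36943 to 53961 against 58344 to 80533 CPM. Fold changes were above 0 for 12 of 14 macrophage markers but for only 3 of 9 tested basophil and mast cell markers, and below 0 for 13 of 13 neutrophil markers. For each of the 3 sums the exact permutation p was 0.1, the smallest that 3 libraries against 3 can give. No marker of these lists was at 0 in every library. With the macrophage sum as a covariate the log2 fold change of Agtr1a was 0.38, and with the neutrophil sum it was 0.65.

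**Figure D2:**
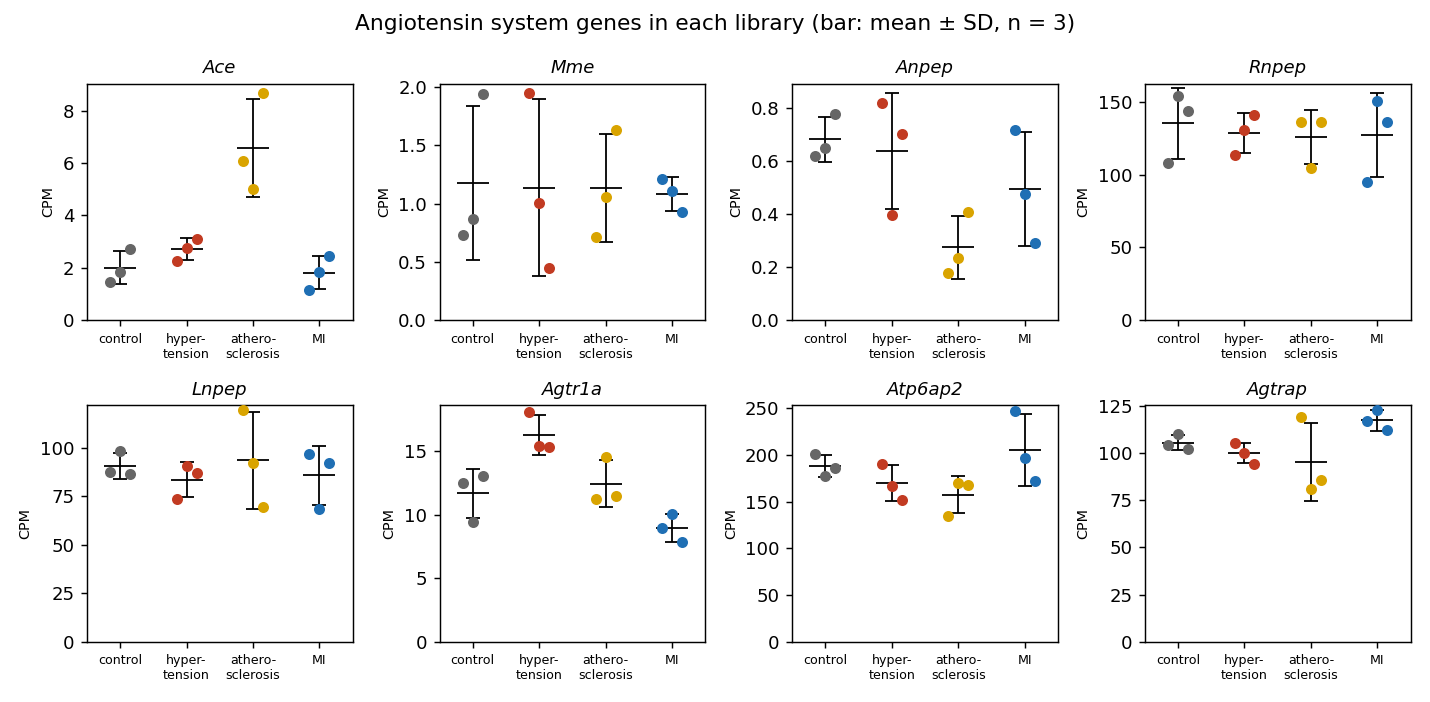
CPM (vertical axes, starting at 0) of the 8 genes in each library by group, with the mean ± SD (n = 3) as a black bar. Agtr1a in hypertension (15.3 to 18.1 CPM) lay above all control libraries, and Ace in atherosclerosis (4.99 to 8.66 CPM) lay above every other library.

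Ace (ENSMUSG00000020681, chr11:105967945-105989964, plus strand) encodes the converting enzyme, which also inactivates bradykinin. The gene is known for a pair of starts, an upstream one for the long somatic enzyme and an internal one for the short enzyme of the testis, and the RefSeq table held 2 entries for it, 7241 bases apart. The counts were summed over the gene and do not separate them. The 250 bases before each start are shown because Ace was the 1 member past the threshold of the quasi-likelihood test in any comparison. Capitals mark matches on either strand to GGGCGG, the core of a GC box. They also mark matches to TATAAA, a motif that places the start in many promoters. The windows are chr11:105967698-105967947 and chr11:105974939-105975188 in GRCm38.p6, plus strand.
Ace upstream start: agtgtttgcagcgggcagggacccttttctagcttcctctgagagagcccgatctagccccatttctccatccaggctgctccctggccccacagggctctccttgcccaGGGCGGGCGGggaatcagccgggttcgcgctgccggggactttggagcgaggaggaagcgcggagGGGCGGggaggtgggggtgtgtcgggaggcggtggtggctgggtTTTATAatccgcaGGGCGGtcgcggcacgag
Ace internal start: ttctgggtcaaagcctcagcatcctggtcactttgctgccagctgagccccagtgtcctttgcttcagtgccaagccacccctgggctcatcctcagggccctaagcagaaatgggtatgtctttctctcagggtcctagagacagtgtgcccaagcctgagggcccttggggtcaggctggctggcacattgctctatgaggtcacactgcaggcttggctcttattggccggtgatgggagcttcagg
The upstream window held GGGCGG at 4 places, the leading 2 of which overlap, and TATAAA at 1 place, and the internal window held neither. The TATAAA match reads TTTATA on the strand of the gene, so the motif itself lies on the opposite strand. Of 32851 RefSeq windows of the same length, 32.7% held GGGCGG and 12.4% held TATAAA on either strand. For 7 of the 8 genes the table had an entry, 10 in all, with 3 for Mme, of which 2 overlap. Of the 10 entries, which are not independent, 8 held GGGCGG, 1 held TATAAA, 1 held GGAAGT and 0 held GATAA. Of all windows 19.7% held GGAAGT and 22.6% held GATAA. Agtr1a had no entry.

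In atherosclerosis 0 of 8 members passed edgeR's quasi-likelihood test, where 0.144% of all tested genes did. By the likelihood-ratio test and by DESeq2 the count was 1, Ace, beside 81 of 15999 tested genes by each. At an unadjusted p under 0.05, 2 of 8 members were past the threshold, Ace and Anpep, beside 5.97% of all tested genes. The atherosclerosis and control libraries did not overlap for 3 members, Ace, Anpep and Atp6ap2, beside 9.51% of all tested genes. Fitted changes were above 0 for 3 members and below 0 for 5, with a median log2 fold change of -0.10 beside 0.01 over all tested genes.

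The level of Ace was 1.46, 1.84 and 2.72 CPM in control and 6.09, 4.99 and 8.66 CPM in atherosclerosis. In hypertension it was 2.27, 2.76 and 3.10 CPM and in MI 1.16, 1.85 and 2.43 CPM. Every atherosclerosis library was above all 9 others, and the other groups overlapped each other. Counts ran from 21 to 170 reads. The antisense gene Gm11651, which overlaps exons of Ace, had at most 0.0529 CPM. The log2 fold change in atherosclerosis was 1.70 (SE 0.33, 95% interval 0.98 to 2.42), a fold of 3.25, with an adjusted p of 0.0968 in edgeR's quasi-likelihood test, rank 32 of 15999. The likelihood-ratio test gave an adjusted p of 0.00134, DESeq2 gave 0.00044, and the quasi-likelihood test without the filter on low counts gave 0.00028. In the other 16 alternatives the adjusted p did not pass, with values up to 1.00, and the log2 fold change over all 19 lay between 1.38 and 2.00. Without atherosclerosis replicate 2 it was 1.76. In hypertension the log2 fold change of Ace was 0.42 (95% interval -0.30 to 1.14), with an adjusted p of 0.951 by the same test. In MI it was -0.16 (-0.90 to 0.58).

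Macrophage markers were higher in the same atherosclerosis libraries. Their sum was 1762 to 2187 CPM against 1245 to 1526 CPM in control (exact permutation p = 0.1, the smallest possible), 13 of 14 markers had a fold change above 0, and C1qa, a complement subunit, and Cd5l, a secreted macrophage protein, passed the test. With the macrophage sum as a covariate, the log2 fold change of Ace was 1.54 (adjusted p = 1.00 in edgeR's quasi-likelihood test), and with the neutrophil sum it was 1.38 (adjusted p = 0.243). Over all tested genes, 23 passed in the main fit, 2 with the macrophage sum and 23 with the neutrophil sum. The basophil and mast cell sum was 2808 to 7317 CPM against 2194 to 3378 CPM, 8 of its 9 tested markers had a fold change above 0, and Gata2, a transcription factor of these cells and of stem cells, passed the test. The B cell sum (13 markers) was 4897 to 9250 CPM against 2222 to 3561 CPM (exact permutation p = 0.1), although 7 of its 13 markers had a fold change below 0 and 6 above. Other lists shifted as well, though their sums overlapped control. Fold changes were below 0 for 13 of 13 neutrophil markers. They were above 0 for 15 of 15 erythroid and 9 of 10 plasmacytoid dendritic cell markers. The part of basophils, mast cells, B cells, erythroid cells and plasmacytoid dendritic cells in the Ace values was not tested. The endothelial sum, 233 to 330 CPM, overlapped the 189 to 326 CPM of control. Mice of this group differ from control in genotype and diet, which cannot be told apart.

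**Figure D3:**
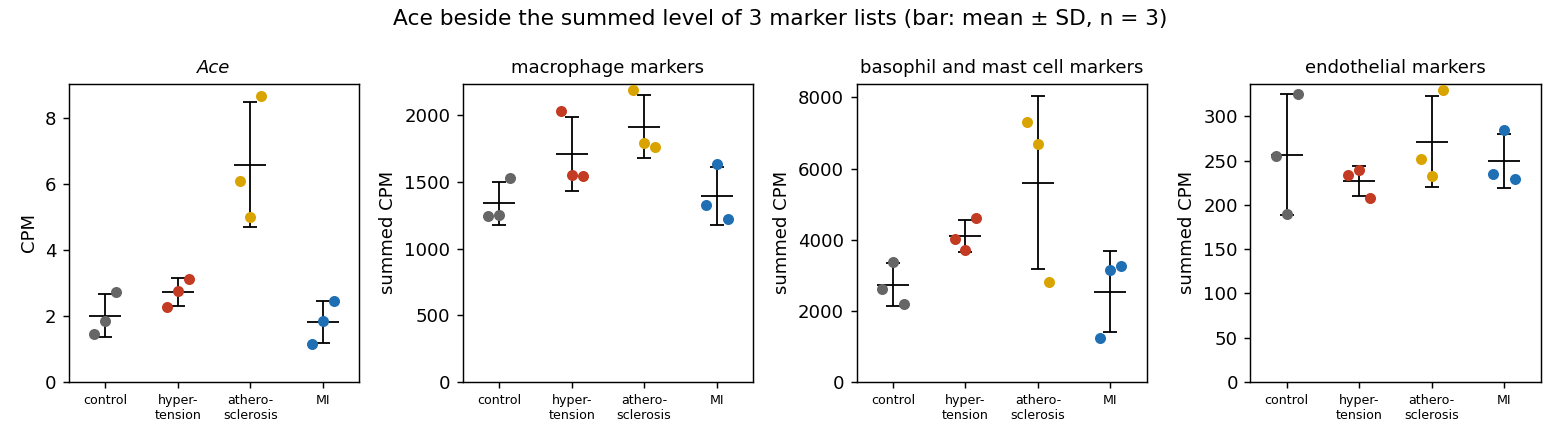
Ace in CPM and the summed CPM of the macrophage, basophil and mast cell, and endothelial marker lists in each library by group, with the mean ± SD (n = 3) as a black bar and vertical axes from 0. The macrophage sum in atherosclerosis (1762 to 2187 CPM) lay above control (1245 to 1526 CPM), as Ace did, while the endothelial sums overlapped.

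The other peptidases of the list are Mme, Anpep, Rnpep and Lnpep. Mme (ENSMUSG00000027820, chr3:63241537-63386030, plus strand) encodes neprilysin, which forms angiotensin 1-7 and degrades natriuretic peptides. Its level was 0.729, 0.866 and 1.94 CPM in control and 1.95, 1.01 and 0.451 CPM in hypertension. It was 0.712, 1.06 and 1.63 CPM in atherosclerosis and 1.21, 1.11 and 0.927 CPM in MI. The groups overlapped throughout, and the spread within control and within hypertension was wide beside any difference between groups. The log2 fold change in hypertension was -0.07, with a 95% interval of -1.18 to 1.04 that leaves room for large changes either way.

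Anpep (ENSMUSG00000039062, chr7:79821803-79861059, minus strand) encodes aminopeptidase N, also called CD13, which turns angiotensin III into angiotensin IV. Its level was 0.617, 0.650 and 0.776 CPM in control and 0.178, 0.235 and 0.407 CPM in atherosclerosis. In hypertension it was 0.817, 0.394 and 0.701 CPM and in MI 0.718, 0.476 and 0.290 CPM. The atherosclerosis libraries lay below all control libraries and overlapped those of hypertension and MI. They rested on 4 to 8 reads each. In atherosclerosis the log2 fold change was -1.31 (SE 0.48, 95% interval -2.35 to -0.28) with an adjusted p of 0.711 in edgeR's quasi-likelihood test, and it did not pass. Without atherosclerosis replicate 2 it was -1.05. In hypertension it was -0.11 (-1.04 to 0.83).

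Rnpep (ENSMUSG00000041926, chr1:135262712-135284084, minus strand) encodes aminopeptidase B, which removes basic residues from peptide ends. Its level was 108, 154 and 143 CPM in control, 114, 131 and 141 CPM in hypertension, 136, 104 and 136 CPM in atherosclerosis and 94.9, 151 and 136 CPM in MI. The 4 groups overlapped. The log2 fold change in hypertension was -0.07 (95% interval -0.50 to 0.36). Its exons overlap Gm26642 on the other strand, which had at most 0.869 CPM.

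Lnpep (ENSMUSG00000023845, chr17:17521410-17625050, minus strand) encodes the insulin-regulated aminopeptidase, the binding site of angiotensin IV. Its level was 87.3, 98.5 and 86.5 CPM in control, 73.3, 90.7 and 86.7 CPM in hypertension, 119, 92.1 and 69.3 CPM in atherosclerosis and 96.9, 68.6 and 91.9 CPM in MI. The atherosclerosis libraries were spread the widest, and all groups overlapped. In hypertension the log2 fold change was -0.12 (95% interval -0.55 to 0.31).

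Atp6ap2 (ENSMUSG00000031007, chrX:12587801-12617049, plus strand) encodes the (pro)renin receptor, which is also an accessory subunit of the vacuolar proton pump. Its level was 201, 178 and 186 CPM in control and 190, 166 and 152 CPM in hypertension. It was 135, 170 and 167 CPM in atherosclerosis and 247, 196 and 172 CPM in MI. The atherosclerosis libraries were below all control libraries, and those of hypertension and MI overlapped control. Its fitted log2 fold change was -0.26 in atherosclerosis (95% interval -0.62 to 0.10; -0.15 without replicate 2) and -0.15 in hypertension (-0.51 to 0.21).

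Agtrap (ENSMUSG00000029007, chr4:148077061-148088031, minus strand) encodes the adaptor that binds the tail of the type 1 receptor and promotes its internalization. Its level was 104, 110 and 102 CPM in control and 105, 100 and 94.4 CPM in hypertension. It was 119, 81.1 and 85.8 CPM in atherosclerosis and 117, 123 and 112 CPM in MI. The MI libraries were above all control libraries, and in atherosclerosis 1 library was above and 2 were below all of control. The log2 fold change in MI was 0.15 (95% interval -0.18 to 0.48), and in hypertension it was -0.08 (-0.41 to 0.25).

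In MI 0 of 8 members passed edgeR's quasi-likelihood test, beside 0% of all tested genes. The likelihood-ratio test and DESeq2 also called 0 members. At an unadjusted p under 0.05 the count was 0 of 8, beside 2.8% of all tested genes. The MI and control libraries did not overlap for 1 member, Agtrap, beside 8.86% of all tested genes. Fitted changes were above 0 for 2 members and below 0 for 6, with a median log2 fold change of -0.11 beside 0.00 over all tested genes.

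**Figure D4:**
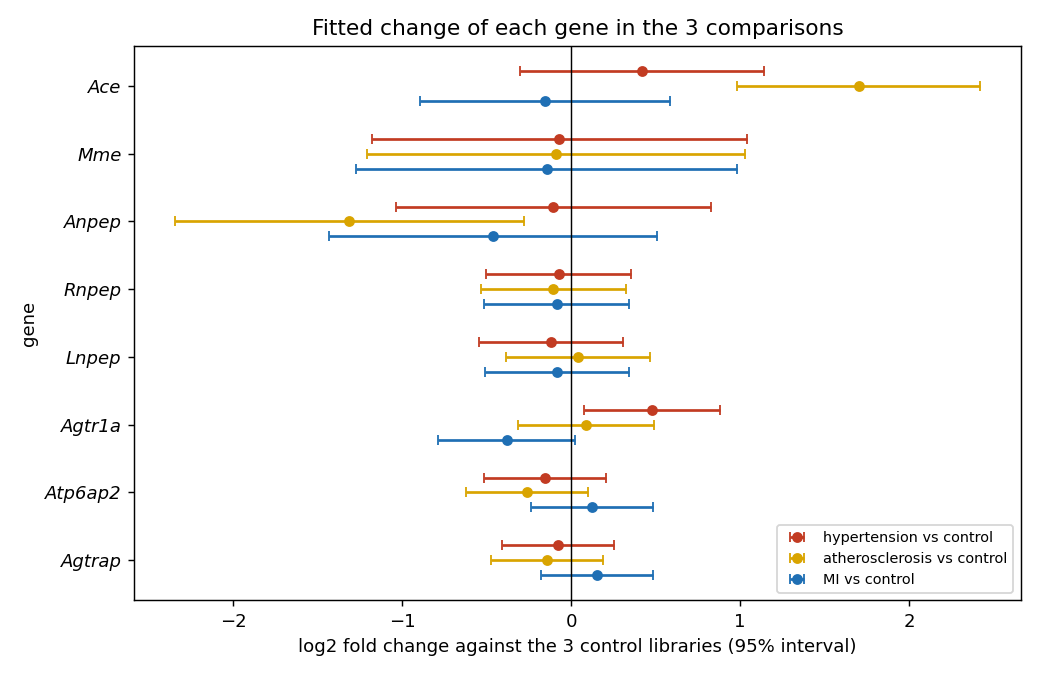
Fitted log2 fold change (horizontal axis) of the 8 genes against the 3 shared control libraries, with 95% intervals, in hypertension, atherosclerosis and MI. Intervals that leave out 0 are those of Agtr1a in hypertension (0.08 to 0.88) and of Ace (0.98 to 2.42) and Anpep (-2.35 to -0.28) in atherosclerosis, none of which passed after adjustment over all genes.

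Set against each other, the disease groups differed in 1 member by edgeR's quasi-likelihood test. Ace was higher in atherosclerosis than in MI, with a log2 difference of 1.86 (SE 0.34, 95% interval 1.13 to 2.59) and an adjusted p of 0.0410 in edgeR's quasi-likelihood test. It was the 1 of 8 members that passed in this comparison, beside 0.269% of all tested genes. The macrophage sum was 1762 to 2187 CPM in atherosclerosis and 1219 to 1633 CPM in MI, and with that sum as a covariate the log2 difference was 1.68 and did not pass (adjusted p = 0.996). Over all tested genes, 43 passed in the main fit and 1 with that covariate, so the lost call is not particular to Ace. The Ace difference passed without atherosclerosis replicate 2 (1.92, adjusted p = 0.0387, edgeR's quasi-likelihood test). It fell short without atherosclerosis replicate 4 (1.61, adjusted p = 0.119), without MI replicate 2 (1.62, 0.143), without MI replicate 3 (1.87, 0.119) and without MI replicate 4 (2.12, 0.102), by the same test. At an unadjusted p under 0.05 there were 3 of 8 members, beside 12.7% of all tested genes. The further 2 were Agtr1a, with a log2 difference of 0.47, and Atp6ap2, with one of -0.38.

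Between hypertension and MI, 0 of 8 members passed the quasi-likelihood test of edgeR, beside 0% of all tested genes, and 1 of 8 had an unadjusted p under 0.05, beside 8.41%. That member was Agtr1a, whose level was higher in hypertension by a log2 difference of 0.86 (SE 0.19, 95% interval 0.46 to 1.26, rank 8 of 15999 by p), with an adjusted p of 0.520 in that test. DESeq2 called it, with an adjusted p of 0.0374, and the likelihood-ratio test did not (0.117). Of 15999 tested genes DESeq2 called 22 there and the likelihood-ratio test 2. Between hypertension and atherosclerosis 0 of 8 passed, beside 0.0625% of all tested genes, and 2 of 8 had an unadjusted p under 0.05, Ace and Anpep, beside 5.94%. Ace was lower in hypertension by a log2 difference of -1.28 (95% interval -1.99 to -0.57, adjusted p = 0.337 by edgeR's quasi-likelihood test). DESeq2 called Ace there, beside 76 of 15999 tested genes, and the likelihood-ratio test called 0 members, beside 70 of 15999.

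Further genes of the system were read from a list of 22, of which 14 were expressed enough to be tested. None passed edgeR's quasi-likelihood test against control in any disease group. The likelihood-ratio test and DESeq2 each called 1, Cpa3, in atherosclerosis, beside 81 of 15999 tested genes by each. At an unadjusted p under 0.05 there was 1 lower gene in hypertension, 1 higher and 1 lower in atherosclerosis and 1 lower in MI, beside 3.71%, 5.97% and 2.8% of all tested genes. The median log2 fold change of the 14 was -0.06 in hypertension, 0.00 in atherosclerosis and -0.07 in MI. On the CPM per kb scale the highest levels in control were those of the cathepsins Ctsz (305 ± 20.9; SD, n = 3), Ctsd (204 ± 18.3) and Ctsg (194 ± 43.9), lysosomal or granule proteases, of which Ctsg can form angiotensin II. Ctsa (40.0 ± 3.60), Cpa3 (12.3 ± 0.26) and Prcp (11.4 ± 0.79), all carboxypeptidases, followed.

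Cpa3, the mast cell carboxypeptidase, was at 18.7, 19.1 and 18.3 CPM in control and at 39.6, 38.8 and 31.9 CPM in atherosclerosis. No library of these groups overlapped. Its log2 fold change was 0.98 (SE 0.17), with an adjusted p of 0.0518 in edgeR's quasi-likelihood test, so that it did not pass, and of 0.00101 by the likelihood-ratio test and 0.000347 by DESeq2, which called it. Cpa3 is also a marker in the basophil and mast cell sum. Klk1, tissue kallikrein, was at 5.94, 4.60 and 3.96 CPM in control, at 4.09, 2.71 and 2.20 CPM in hypertension and at 2.48, 2.43 and 3.07 CPM in MI. Its MI libraries were below all of control, and 1 hypertension library overlapped control. Its fitted change was -0.68 in hypertension and -0.86 in MI on the log2 scale, and neither passed in edgeR's quasi-likelihood test (adjusted p = 0.951 and 1.00). Klk1 is also one of 10 plasmacytoid dendritic cell markers, whose sum was 438 to 519 CPM in MI against 566 to 660 CPM in control. Ctsg had a log2 fold change of -0.56 in atherosclerosis, and its adjusted p by the same test was 0.831. Fold changes were below 0 for 13 of 13 neutrophil markers in that group, though the neutrophil sums overlapped control. The part of neutrophils in the Ctsg values was not tested.

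The other end of the system was barely read. Agtr1b had 0 counts in all 12 libraries, which allows up to 0.116 to 0.176 CPM per library (3 counts, counting error only). Mas1, the angiotensin 1-7 receptor, had 0 to 6 counts per library. Agtr2, Cma2, Mcpt4 and Mrgprd had 1 count each in all libraries together. Changes of these genes were not detectable at this depth. Ren1, which encodes renin, was also below the filter on low counts, with 10, 8 and 7 counts in control, 3, 3 and 5 in hypertension, 0, 3 and 1 in atherosclerosis and 0, 1 and 2 in MI. Its level of 0.272 to 0.561 CPM in control lay above all 9 other libraries, where it was at most 0.250 CPM. The share of all genes with control above all 9 other libraries was not computed. A fit without the filter was chosen after these values were seen. There the adjusted p of Ren1 by edgeR's quasi-likelihood test was 0.925 in hypertension, 0.285 in atherosclerosis and 0.497 in MI. No difference passed.

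Signalling below the type 1 receptor was read from 29 genes, all tested. None passed in any comparison with control by the quasi-likelihood test, the likelihood-ratio test or DESeq2. The quasi-likelihood test without the filter on low counts called Gna11 and Prkca in atherosclerosis, beside 432 of 36003 genes. In hypertension 1 was higher and 1 lower at an unadjusted p under 0.05, beside 3.71% of all tested genes. Arrb1, the arrestin that desensitizes the receptor, had a log2 fold change of 0.34 (95% interval 0.03 to 0.65), with levels of 105, 104 and 119 CPM in hypertension above 85.1, 81.5 and 92.2 CPM in control. Itpr2, a calcium release channel, had one of -0.35 (-0.69 to -0.01). Plcb1, a phospholipase of the pathway, had a log2 fold change of -0.28, and its interval held 0. The median log2 fold change of the 29 in hypertension was -0.03.

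Of 30 genes known to respond to angiotensin II in vessels, 27 were tested and none passed edgeR's quasi-likelihood test in any comparison with control. The likelihood-ratio test and DESeq2 each called 1, Il6, in atherosclerosis, beside 81 of 15999 tested genes by each. Without the filter the quasi-likelihood test called Il6, Ccn1 and Spp1 in atherosclerosis, beside 432 of 36003 genes. In MI it called Ptgs2, beside 130 of 36003. In hypertension 4 fitted changes were above 0 and 23 below, with a median log2 fold change of -0.26 beside -0.01 over all tested genes. Il6, an inflammatory cytokine, was the 1 gene at an unadjusted p under 0.05 (3.71% of all tested genes), at 2.09, 3.68 and 3.66 CPM in hypertension and 2.07, 1.79 and 1.75 CPM in control. The groups were separated by 1 narrow gap, between 2.07 and 2.09 CPM. Its log2 fold change was 0.75 (95% interval 0.06 to 1.44). Ccn2, a matrix-associated growth regulator, had a log2 fold change of -1.34 (-2.76 to 0.08), for which 1 control library with 179 reads stood above the other two, with 29 and 52. Mmp2, a gelatinase, and Fos, an immediate early transcription factor, had log2 fold changes of -0.88 (-1.90 to 0.13) and -0.37 (-0.81 to 0.07).

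Of 10 genes of the aldosterone and bradykinin branch, 4 were tested and none passed by the quasi-likelihood test, the likelihood-ratio test or DESeq2. In hypertension Nr3c2, the mineralocorticoid receptor, had a log2 fold change of -0.45, Cpm, a membrane carboxypeptidase, one of -0.21, Sgk1, an aldosterone-induced kinase, one of -0.17 and Kng1, kininogen, one of 0.13. The intervals of all 4 held 0. In MI Cpm had a log2 fold change of -1.25 (95% interval -1.89 to -0.61), with an adjusted p of 1.00 in edgeR's quasi-likelihood test and of 0.000233 in that test without the filter on low counts. The unfiltered fit called 130 of 36003 genes in MI. Bdkrb2, the constitutive bradykinin receptor, had 0 counts in all libraries.

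**Figure D5:**
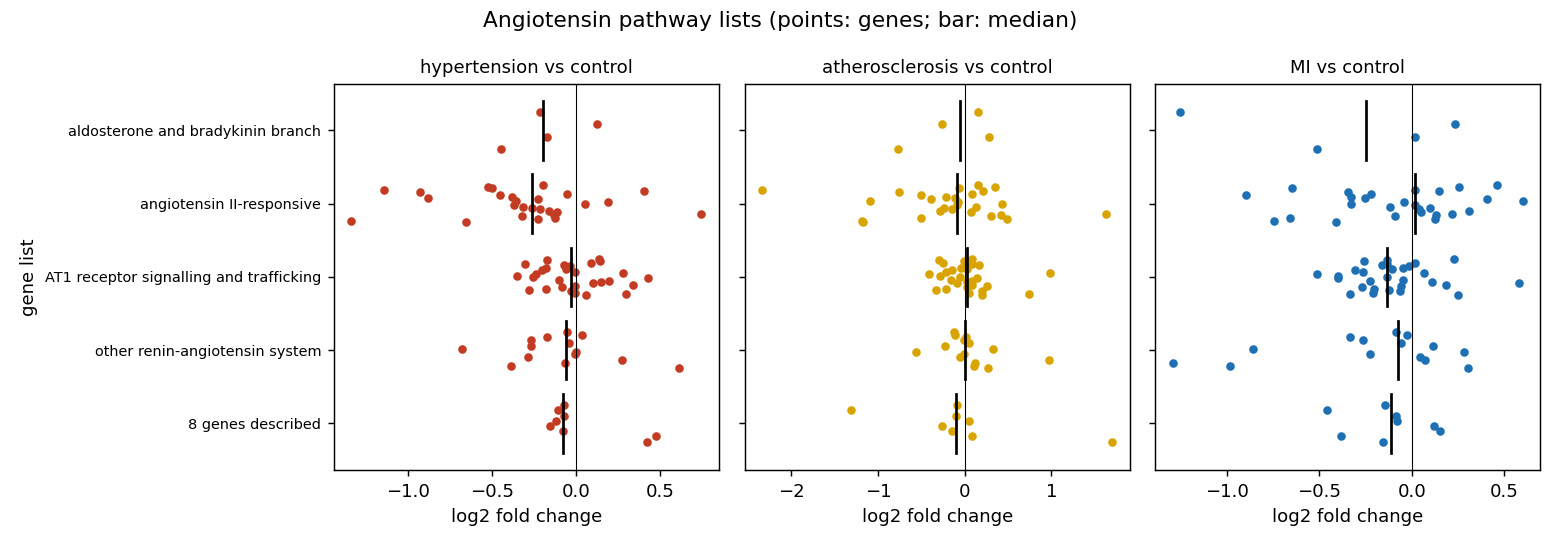
Log2 fold change against control (horizontal axes, which differ between panels) of the tested genes of the 8-gene list and of 4 further pathway lists, 1 point per gene, with the median as a black bar. In hypertension the median of the angiotensin II-responsive list was -0.26 and those of the 8 genes and of the signalling list were -0.08 and -0.03.

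Across the 12 libraries tested genes whose log2 CPM followed Ace closely included Gata2, Cd300e, Otub2 and Rgl1, with Pearson's r from 0.918 to 0.934. In all, 13 genes reached an r of 0.9 or more. For Agtr1a the 5 closest were Pcyt1b, Gata1, Isca1, Rhd and Dcaf4, with r from 0.878 to 0.898. For Mme they were Selenop, Orc3, Abhd12, Cxcl12 and Tmem175 (0.860 to 0.895), and for Anpep they were Particl, Tssk6, Gpnmb, Mettl2 and Slc1a5 (0.830 to 0.869). Gata1, which followed Agtr1a, is also an erythroid marker. The erythroid sum was 17686 to 25209 CPM in hypertension and 17531 to 30267 CPM in control, and the ranges overlapped. Of 15 erythroid markers, 10 had a fold change above 0 in hypertension and 5 below. The erythroid sum was not used as a covariate, and the part of erythroid cells in the Agtr1a values was not tested. The 12 points share their groups and their mix of cells, and the r values are a description.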

How the data were processed

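RNA of flow-sorted cells (lineage depletion by magnetic beads, then a TER-119-, CD41-, CD45-, CD31hi, SCA-1+ gate) was sequenced by the authors as single-end reads of 50 bases from poly(A)-selected, directional libraries. The deposited values are raw counts of reads per gene, made by the authors with STAR 2.7.3a against GRCm38.p6 with Ensembl annotation. Which strand column was taken is not given in the sources used here. The 12 libraries held 17007088 to 25136936 counts, and 3 counts equal 0.116 to 0.176 CPM.

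Genes were filtered with filterByExpr, scaled by TMM and tested in edgeR 4.0.16 (R 4.3.3) with the two-sided quasi-likelihood test, with 4 groups in 1 fit and Benjamini-Hochberg adjustment over 15999 genes at 0.05. The study's own likelihood-ratio test, DESeq2 1.42.0, other filters and scalings, marker sums as covariates, a replicate block and leaving out each library were alternatives. The model scripts were tested on simulated data. CPM are TMM-scaled, and exon lengths and positions come from GENCODE M21 (GRCm38), which held 55240 of 55421 genes. Promoters come from RefSeq.

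The members and gene lists were chosen with earlier results of these data known. Beyond all 8 members, named genes were, in the list of further system genes, those with an unadjusted p under 0.05 or the 6 highest per kb, in the other 3 lists the 4 with the smallest p in hypertension, and for Ace, Agtr1a, Mme and Anpep the 5 with the highest r. Some genes that these rules name are not reported here. Other names (Cdh5, Ptprc, Apoe, the called markers, genes at or near 0 counts, genes called without the filter, and Cpm in MI) were chosen after their values were seen. Alternatives for the comparisons between disease groups were added after seeing the data.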

Additional observations from a re-analysis of the deposited data

Results flagged for a closer look

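Ace differed between the atherosclerosis and MI groups in a direct test, with a log2 difference of 1.86 (adjusted p = 0.0410, edgeR's quasi-likelihood test). All 3 atherosclerosis libraries were above all 3 MI libraries. The values with 1 library left out or with marker sums in the fit are given in the report.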

How the results depend on the processing

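With 3 libraries a group, only large changes of low genes were detectable: Anpep rested on 4 to 20 reads and Mme on 9 to 50, and neither had a value when at least 10 counts were required in every library. The count of members past the threshold was 0 in hypertension and in MI against control in every alternative run. In atherosclerosis it was 1, Ace, by the likelihood-ratio test, by DESeq2, without the filter on low counts and at an adjusted p under 0.1, and 0 in the rest. The following alternatives for the direct comparisons were chosen after seeing the data. DESeq2 and the unfiltered fit each called 1 member, Ace, between hypertension and atherosclerosis and 1, Agtr1a, between hypertension and MI, where the main count was 0. Among all genes DESeq2 called 76 and 22 in these comparisons, and the unfiltered fit 235 and 422. Between atherosclerosis and MI the count of 1 became 0 with only the 2 groups in the fit and with the endothelial, macrophage, monocyte or neutrophil sum as a covariate, and leaving out 1 library gave 0 to 1. Among all tested genes the count of 43 in that comparison was 3 with only the 2 groups. It was 18, 1, 44 and 18 with those sums. Over all genes, 23 passed in atherosclerosis against control, and 81 by the likelihood-ratio test and by DESeq2, 432 without the filter and 2 with the macrophage sum. Unfiltered fits called 170 genes in hypertension and 130 in MI, where the main count was 0. The cause was not tested.

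With the replicate block, the members past the threshold were 0 in each comparison with control and the log2 fold change of Ace in atherosclerosis was 1.73 (adjusted p = 0.0546, edgeR's quasi-likelihood test). Over all genes the block moved the count in atherosclerosis from 23 to 7. The labels repeat the numbers 2, 3 and 4 in every group without saying what they share. Deviations of same-numbered disease and control libraries correlated at -0.17 to 0.29. Libraries of different numbers were not compared, so whether same-numbered libraries shared a batch was not tested. The block changed no call of a member.

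Ace in atherosclerosis, Agtr1a in hypertension and Anpep in atherosclerosis kept their direction in every alternative that gave a value. Small changes that had not passed changed sign, and none passed in either direction. With the neutrophil sum as a covariate the log2 fold change became 0.090 for Atp6ap2, 0.11 for Anpep and 0.21 for Mme in hypertension, -0.077 for Lnpep and 0.19 for Mme in atherosclerosis, and 0.016 for Rnpep in MI. With the monocyte sum it became 0.27 for Anpep and 0.39 for Mme in hypertension. With the stromal sum it became 0.0087 for Anpep and 0.12 for Mme in hypertension and 0.10 for Mme in MI. With the endothelial sum it became 0.21 for Mme in hypertension and 0.070 in MI, and with the macrophage sum -0.046 for Agtr1a in atherosclerosis. Leaving out 1 library at a time, the log2 fold change in hypertension ran from -0.21 to 0.029 for Rnpep, from -0.33 to 0.15 for Anpep and from -0.70 to 0.52 for Mme. In atherosclerosis it ran from -0.044 to 0.18 for Agtr1a, from -0.16 to 0.22 for Lnpep, from -0.25 to 0.011 for Rnpep and from -0.45 to 0.51 for Mme. In MI it ran from -0.42 to 0.14 for Ace, from -0.034 to 0.23 for Atp6ap2, from -0.18 to 0.056 for Lnpep, from -0.23 to 0.087 for Rnpep and from -0.39 to 0.45 for Mme.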
